A study of Arabidopsis thaliana with 8 samples.

Results

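Small RNAs of 21 and 22 nt were measured at 45 nuclear genes of photosynthesis in Arabidopsis thaliana. The genes were listed by locus identifier from families of known function, with earlier results of these data known, and no measured value enters the rule: 4 LHCA and 14 LHCB antenna genes, 10 genes of photosystem I subunits, 9 of photosystem II subunits, the plastocyanin genes PETE1 and PETE2 with PETC, and 4 RBCS genes with RCA. All 45 were among the 32420 gene rows of the deposited table. The small RNAs came from the aerial parts of 20-day-old plants, kept for 6 days on MS medium and for 14 days on soil without treatment. By the labels, 4 libraries are from the double mutant ein5-1 ski2-3, called es3. Another 4 are from es3dd, in which dcl4-2 and dcl2-1 are added to the same pair, so both groups carry the decay mutations ein5-1 and ski2-3. The wild type, Col, is present only as the authors' means and comparisons. An aerial part mixes many cell types, and in such bulk samples fewer cells of a type and less RNA per cell cannot be told apart.

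Antenna proteins of the LHCA and LHCB families bind chlorophyll and pass light energy to photosystem I and photosystem II. Photosystem II splits water, plastocyanin carries electrons from the cytochrome b6f complex to photosystem I, and Rubisco, kept active by Rubisco activase (RCA), fixes carbon dioxide. All 45 proteins are made in the cytosol from nuclear transcripts and are then imported into the chloroplast. Many transcripts of these families, though not all, are among the most abundant mRNAs of a leaf. EIN5 (XRN4) is an exoribonuclease that degrades mRNA from the 5′ end, and SKI2 is a helicase that feeds RNA to the exosome for decay from the 3′ end. DCL4 and DCL2 are Dicer enzymes that cut double-stranded RNA into siRNAs of 21 and 22 nt. A short RNA of either length at an mRNA can be such an siRNA or a piece of the decaying transcript, and a count by length alone does not separate them.

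Values are in the authors' TPM, a read number on a common scale with no correction for the length of the gene. The deposited columns hold group means, from which the value of each library was recovered as whole reads for all 45 genes in both size classes. Libraries are called A to D within a group and size class. The letters carry no replicate number, and library A at 21 nt need not be library A at 22 nt. A member rested on 3 to 4608 reads over the 4 libraries of a group, with a median of 304.5, and LHCB4.3 was the lowest (in es3 and es3dd 15 and 6 reads for the 21-nt class, 3 and 8 for the 22-nt class). Differences between es3 and es3dd were tested with limma over all genes with a mean of at least 1, and the call needed an adjusted p below 0.05 together with an absolute log2 difference of at least 1.

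Several members are near copies, so reads can match more than one of them. Over windows of 21 bases, the length of the shorter small RNA class, 23 of the 45 transcripts shared at least 1 window with another member, and 33 had under 5% of their windows at several places in the genome. Members picked from LHCB1, plastocyanin, PSAD and RBCS are shown by the last 90 coding bases, including the stop codon. The bases are from RefSeq (build TAIR10.1), read 5′ to 3′ on the coding strand. Other members that share windows, such as PSBO1 and PSBO2, are not shown. Capitals mark bases that differ from the first sequence of each family. The LHCB1 family shows how alike the antenna copies are: LHCB1.5 at chr2:14522716-14522805 (minus strand), LHCB1.4 at chr2:14525529-14525618 (plus strand), LHCB1.1 at chr1:10475089-10475178 (minus strand) and LHCB1.3 at chr1:10478785-10478874 (plus strand).
LHCB1.5: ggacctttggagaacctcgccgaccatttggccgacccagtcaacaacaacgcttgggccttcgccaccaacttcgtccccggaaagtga
LHCB1.4: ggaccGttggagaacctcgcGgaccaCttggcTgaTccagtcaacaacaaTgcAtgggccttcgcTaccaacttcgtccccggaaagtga
LHCB1.1: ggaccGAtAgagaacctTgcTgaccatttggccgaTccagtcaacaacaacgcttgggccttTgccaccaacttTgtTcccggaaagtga
LHCB1.3: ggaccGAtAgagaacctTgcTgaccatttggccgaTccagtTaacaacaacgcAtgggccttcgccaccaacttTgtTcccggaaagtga
LHCB1.4 and LHCB1.5 were identical at 82 of 90 bases with 4 shared windows of 21, and LHCB1.1 and LHCB1.3 at 87 of 90 with 28 shared windows.

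The plastocyanin and PSAD pairs are shown because their copies carried different amounts of small RNA while sharing few windows. PETE1 lies at chr1:28554217-28554306, PETE2 at chr1:7042770-7042859, PSAD1 at chr4:1229247-1229336 and PSAD2 at chr1:753528-753617, all on the minus strand.
PETE1: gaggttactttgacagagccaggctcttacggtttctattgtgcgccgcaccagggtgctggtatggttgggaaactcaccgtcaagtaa
PETE2: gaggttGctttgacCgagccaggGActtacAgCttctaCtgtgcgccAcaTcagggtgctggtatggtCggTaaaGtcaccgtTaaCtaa
PSAD1: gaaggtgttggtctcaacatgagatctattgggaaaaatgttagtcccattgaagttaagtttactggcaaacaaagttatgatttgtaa
PSAD2: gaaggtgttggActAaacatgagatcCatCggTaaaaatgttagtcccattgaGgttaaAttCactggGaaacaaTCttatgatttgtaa
PETE1 and PETE2 were identical at 76 of the 90 bases, PSAD1 and PSAD2 at 79, and neither pair had a run of 21 identical bases in this stretch. Rubisco small subunit copies stand at the other end: RBCS1B (chr5:15384350-15384439, minus strand) and RBCS2B (chr5:15381203-15381292, minus strand) share 60 windows.
RBCS1B: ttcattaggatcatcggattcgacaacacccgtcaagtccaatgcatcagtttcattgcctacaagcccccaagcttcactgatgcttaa
RBCS2B: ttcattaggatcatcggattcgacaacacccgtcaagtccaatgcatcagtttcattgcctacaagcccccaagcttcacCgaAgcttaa
RBCS3B has the same 90 bases as RBCS2B. How the authors assigned reads that match several genes is not given in the sources used here. Values within LHCB1, LHCB2 and RBCS can thus be split between copies in an unknown way. LHCA2 had 27.1% of its windows at several places in the genome but 0.36% in other members, so its reads can match places outside the members. A gene on the other strand overlaps 14 of the members, and whether strand was used in counting is not given either.

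On the authors' scale, small RNAs were highest in wild type for most of these genes. By the authors' means, es3 was below Col for 41 of 45 members in the 21-nt class and for 44 of 45 in the 22-nt class, and all 45 were below Col in es3dd in both classes. At 21 nt the median member stood at 38.1% of its Col mean for es3 and 43.3% for es3dd, and at 22 nt at 28.9% and 46.9%. All 45 had a Col mean of at least 5, and among 2711 other nuclear protein-coding genes with such a Col mean the 21-nt median was 103.9% for es3 and 47.9% for es3dd. For 2454 such genes at 22 nt it was 77.2% and 55.7%. In es3, 48.5% of these other genes were below Col at 21 nt and 65.85% at 22 nt, against 91.1% and 97.8% of the members. In es3dd most other genes were below Col as well, 84.6% at 21 nt and 79.6% at 22 nt, against 100% of the members. The background depends on the genes admitted: with a mean of at least 5 in any genotype, which lets in genes high only in es3, it was 290% for es3 at 21 nt over 6406 genes and 123% at 22 nt over 3961. The minimum in Col alone was chosen after the values had been seen. As a share of the summed signal of all genes, the members took up 1.89% (Col), 1.22% (es3) and 0.644% (es3dd) at 21 nt, then 4.18%, 1.42% and 2.15% at 22 nt. These means and shares come without a spread. No other scaling was tried against Col, so whether the direction holds on another scale was not tested.

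Plastid-encoded genes, taken as all listed genes of the plastid genome whatever their function, moved in the same direction. By the authors' means, the 21-nt median of 87 such genes was 19.5% of the Col mean for es3 and 59% for es3dd, and at 22 nt that of 84 genes was 23.8% and 60.7%. Their part in the members' values was not tested.

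In the authors' deposited table for es3 over Col at 21 nt, 31 of the 45 members were called lower and 1 higher, where 3.89% of 18061 genes were lower and 21.2% higher. At 22 nt the authors' deposited table had 41 members lower and 0 higher, where 3.96% of 14640 genes were lower and 7.85% higher. The members' median log2 fold change in the authors' deposited table was -1.38 at 21 nt and -1.79 at 22 nt, beside 0.74 and 0.19 over all genes. On the same scale in the authors' deposited table, 84 of 88 plastid-encoded genes were lower at 21 nt with a median of -2.35, and MIR loci, which encode microRNA precursors, had a median of -0.78. The housekeeping list had a median of 0.57 at 21 nt and -0.31 at 22 nt in the authors' deposited table. On the authors' scale, the members were thus below the wild type by more than MIR loci and by less than plastid-encoded genes. PETE1 was the member called higher at 21 nt, and PETE1, PSAD1, LHCB1.4 and LHCB1.5 were the 4 not called lower at 22 nt.

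**Figure D1:**
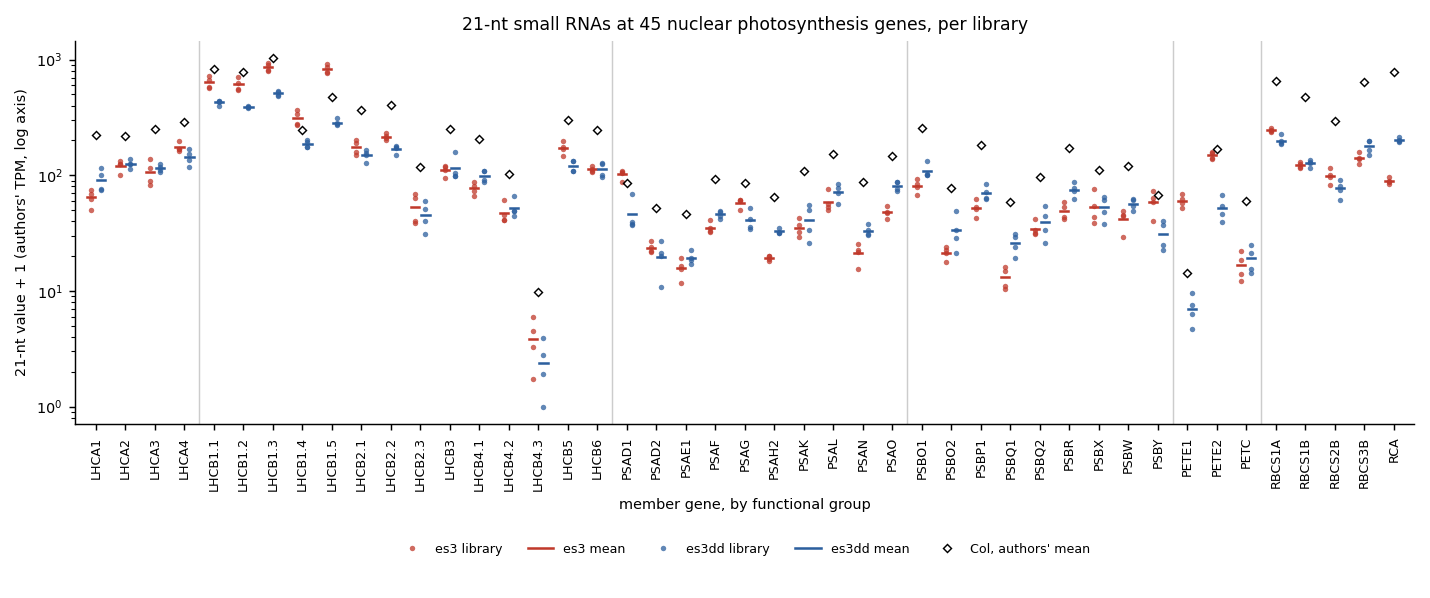
Each dot is the 21-nt value + 1 (authors' TPM, log axis) of 1 recovered library of es3 (red) or es3dd (blue), bars are the means of 4 libraries, and open diamonds are the authors' Col means, for 45 genes ordered by functional group. The diamonds lie above both group means for all genes but LHCB1.4, LHCB1.5, PSAD1 and PETE1, where the es3 mean is above Col, and for PSBY the highest es3 library is above Col too.

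Setting es3 beside es3dd asks how far the small RNAs depend on DCL4 and DCL2 when RNA decay is impaired. At 21 nt, 4 of the 45 members were called higher in es3 (LHCB1.5, PSAD1, PETE1 and PETE2) and 1 lower (RCA), where 45.9% of 17412 genes tested were higher and 7.7% lower. The members' median log2 difference was -0.05, beside 0.98 over all genes tested, with 20 members above 0 and 25 below it. Scaled to MIR loci, all 45 members were higher and 43 called, and scaled to plastid-encoded genes 40 were called higher. Centred on the median of all genes, 21 were called lower and 1 higher, and scaled to the housekeeping list 26 and 1. All genes tested moved too. Under these 4 scalings, in this order, their medians were 2.07, 1.92, 0.04 and 0.31, beside the members' 1.86, 1.605, -0.99 and -1.175. The shares of all genes called under them are not given here. At an adjusted p below 0.05 alone, 15 members were higher and 13 lower, where 46.7% and 11.1% of all genes tested were. The authors' deposited table for es3 over es3dd called 4 members higher and 2 lower at 21 nt, where 32.3% and 6.61% of 19089 genes were, and 0 and 9 at 22 nt, where 10.9% and 3.78% of 14139 were. All es3 libraries lay above all es3dd libraries for 12 members, and below them for 9, where 36.7% and 8.97% of all genes did so.

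At 22 nt, 9 members were called lower in es3 and 0 higher in limma, where 4.32% of 14661 genes tested were lower and 15.2% higher. At an adjusted p below 0.05 alone, 28 were lower and 1 higher, where 6.96% and 16.7% of all genes tested were. The median was -0.62 beside 0.30 over all genes tested, and 40 members lay below 0, all of which reversed when scaled to MIR loci and 38 when scaled to plastid-encoded genes. All es3 libraries lay below all es3dd libraries for 27 members and above them for 0, where 6.85% and 16.4% of all genes did so. For 41 of the 45 members the log2 difference was lower at 22 nt than at 21 nt. Of 13736 genes tested in both classes, 65.8% had the same order.

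**Figure D2:**
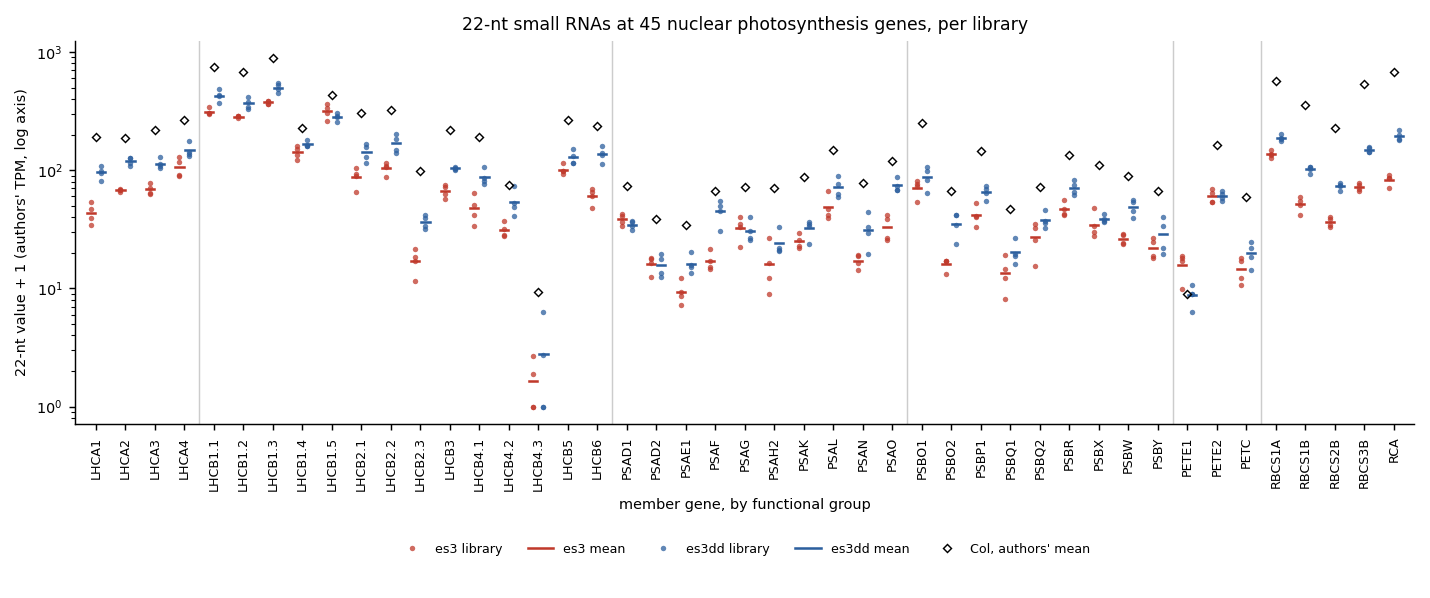
Each dot is the 22-nt value + 1 (authors' TPM, log axis) of 1 recovered library of es3 (red) or es3dd (blue), with bars for the means of 4 libraries and open diamonds for the authors' Col means. On this scale es3 lies below es3dd at 40 of 45 genes, an order that reverses when the libraries are scaled to MIR loci, and the Col mean lies above both group means at every gene but PETE1.

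LHCB1 encodes the most abundant proteins of the trimeric antenna of photosystem II, and in es3 its 5 genes held the first 5 ranks of the members per kilobase in both size classes. In Col LHCB1.4 ranked 17th at 21 nt and 16th at 22 nt, and in es3dd 8th and 7th. Per kilobase of transcript, the authors' Col means at 21 nt were 836 for LHCB1.3, 639 for LHCB1.2 and 633 for LHCB1.1, the first 3 of the 45 members. LHCB1.5 ranked 6th in Col with 455 per kilobase and 1st in es3 with 793, ahead of LHCB1.3 with 699.7 there. The 21-nt order of these copies was therefore not the same in the 2 genotypes.

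LHCB1.5 (AT2G34420, chr2:14522524-14523568, minus strand) had 21-nt values of 764, 785, 856 and 909 in es3, against 268, 275, 284 and 309 in es3dd. Every es3 library was more than any es3dd library, and the groups stood far apart. The means were 829 ± 66.5 and 284 ± 17.8 (SD, n = 4), a log2 difference of 1.54 ± 0.07 (SE, limma adjusted p = 1.5e-15). It was still higher but below the call at 0.60 when centred on the median and at 0.41 when scaled to the housekeeping list. At 22 nt it had 262, 303, 334 and 359 in es3, against 256, 283, 284 and 301 in es3dd, which overlap. In the authors' deposited table its log2 fold change over Col was 0.801 at 21 nt (adjusted p = 2.5e-15) and -0.47 at 22 nt. The gene thus stood above Col at 21 nt and below it at 22 nt. AT2G08665 and AT2G34410 overlap it on the other strand.

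LHCB1.4, whose gene lies beside LHCB1.5 on the opposite strand, had 271, 277, 337 and 368 in es3, against 173, 175, 193 and 201 in es3dd at 21 nt. LHCB1.3, the member with the most 21-nt small RNA in es3 before division by length, had 797, 813, 895 and 938 in es3, against 483, 498, 526 and 530.5 in es3dd. In both genes the groups did not overlap, and the log2 differences of 0.74 ± 0.10 and 0.75 ± 0.06 (SE) were below the fold required for a call. LHCB1.1 and LHCB1.2 were between 0.56 and 0.64. Centred on the median, LHCB1.3 reversed to -0.19. At 22 nt LHCB1.3 had 359, 362, 384 and 386 in es3, against 445, 482, 519 and 548 in es3dd, so the groups stood apart in the other direction, at -0.41 ± 0.06 (SE, limma adjusted p = 5.3e-08), which reversed to 1.04 when scaled to MIR loci. Per kilobase, LHCB1.5 held 2.42 times the authors' 21-nt mean of LHCB1.4 in Col, 3.32 times in es3 and 1.93 times in es3dd.

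The other LHCB genes, which encode the LHCB2 and LHCB3 trimer proteins and the single antenna proteins CP29 (LHCB4), CP26 (LHCB5) and CP24 (LHCB6), were not called at 21 nt, with limma log2 differences from -0.36 to 0.71. LHCB5 had 144, 169, 175 and 199 in es3, against 108, 108, 131 and 131 in es3dd, without overlap. At 22 nt LHCB2.3 and LHCB6 were called lower, and scaled to MIR loci they stood at 0.27 and 0.28. LHCB6 had 47.03, 59.6, 64.5 and 68.6 in es3, against 111, 133, 138 and 159 in es3dd at 22 nt, each es3 value less than any es3dd value, with a log2 difference of -1.16 ± 0.13 (SE, limma adjusted p = 1.2e-11). At 21 nt the same gene had a log2 difference of 0.008 ± 0.13 (SE). LHCB2.3 had 10.6, 16.1, 17.4 and 20.3 in es3, against 30.6, 32.9, 38.5 and 40.7 in es3dd at 22 nt. Its log2 difference was -1.12 ± 0.23 (SE, limma adjusted p = 0.00011), and it fell short of the call at -0.95 without es3 library C. LHCB4.1, at -0.91, was called at -1.07 without es3 library B.

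In es3 against Col, 7 of the 14 LHCB genes were called lower at 21 nt and 12 at 22 nt in the authors' deposited table. The 7 at 21 nt were LHCB2.1, LHCB2.3, LHCB3, LHCB4.1, LHCB4.2, LHCB4.3 and LHCB6, with log2 fold changes from -1.64 to -1.08 in the authors' deposited table. No LHCB1 gene was among them. At 22 nt LHCB1.1, LHCB1.2 and LHCB1.3 were called too, at -1.26, -1.26 and -1.25 in the authors' deposited table.

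The 4 LHCA genes, whose proteins form the antenna belt of photosystem I, had 21-nt means of 63.3 to 174 in es3 and 90.3 to 143 in es3dd, and none was called. LHCA4, the highest, had 162, 167, 169 and 198 in es3, against 118, 134, 152 and 168 in es3dd at 21 nt, which overlap. At 22 nt all 4 had every es3 library below every es3dd library, and scaled to MIR loci LHCA4 stood at 0.98. LHCA1 had 33.1, 38.1, 46.1 and 52.3 in es3, against 80.5, 92.8, 96.5 and 108 in es3dd. It was called lower in es3 at -1.15 ± 0.15 (SE, limma adjusted p = 3.4e-09), which reversed to 0.29 when scaled to MIR loci. LHCA2, LHCA3 and LHCA4 lay between -0.81 and -0.47. LHCA1 at -1.81 and LHCA3 at -1.24 were called lower than Col at 21 nt in the authors' deposited table, and all 4 at 22 nt, from -2.15 to -1.32.

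Photosystem I subunits showed opposite differences within the group at 21 nt. PSAD1 (AT4G02770, chr4:1229031-1230164, minus strand) encodes PsaD, part of the ferredoxin docking site on the stromal side. It had 85.98, 103, 107 and 109 in es3, against 36.3, 37.2, 38.4 and 67.6 in es3dd. The groups did not overlap, although 1 es3dd library stood far above the other 3. Its log2 difference was 1.199 ± 0.18 (SE, limma adjusted p = 6.3e-06), falling to 0.26 when centred on the median and 0.084 when scaled to the housekeeping list. PSAD2, which shares few windows with it, had 20.6, 21.1, 22.9 and 26.3 in es3, against 9.74, 19.2, 20.3 and 26.1 in es3dd, which overlap. Per kilobase, the authors' 21-nt mean of PSAD1 was 1.403 times that of PSAD2 for Col, 3.75 times for es3 and 2.01 times for es3dd. At 22 nt neither PSAD gene differed beyond its spread, with log2 differences of 0.15 ± 0.19 and 0.039 ± 0.28 (SE).

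PSAF, PSAH2, PSAN and PSAO had every es3 library below every es3dd library at 21 nt, at log2 differences from -0.76 to -0.39, and none passed the call. PsaF and PsaN lie on the plastocyanin side of the complex, and PsaH and PsaO on the side where the mobile antenna docks. At 22 nt PSAF and PSAO were called lower. PSAF had 13.6, 14.2, 15.97 and 20.5 in es3, against 29.8, 44.2, 48.9 and 53.9 in es3dd at 22 nt. The lowest es3dd library was well above the highest es3 library, and the log2 difference of -1.39 ± 0.22 (SE, limma adjusted p = 7.2e-07) was the most negative of the 45, reversing to 0.012 when scaled to MIR loci. PSAO had 24.6, 25.7, 37.3 and 40.9 in es3, against 66.5, 67.6, 72.4 and 86.6 in es3dd at 22 nt, without overlap, at -1.19 ± 0.17 (SE, limma adjusted p = 5.8e-08) and 0.24 when scaled to MIR loci. PSAN, at -0.82, was called at -1.03 without es3dd library B. Against Col, the authors' deposited table had 8 of the 10 photosystem I genes called lower at 21 nt and 9 at 22 nt, with PSAN lowest in both, at -2.100 and -2.25. PSAG was not called at 21 nt at -0.58, nor PSAD1 in either class, at 0.24 and -0.97 in the authors' deposited table.

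None of the 9 photosystem II genes was called at 21 nt in limma, and 8 of them lay below 0. PSBO1, PSBQ1, PSBR and PSBW had all es3 libraries below all es3dd libraries, and scaled to MIR loci PSBO1 stood at 1.49. PSBO1, the highest of the group, encodes the extrinsic protein that stabilises the manganese cluster of water oxidation. It had 66.4, 78.7, 83.2 and 91.8 in es3, against 98.6, 99.7, 102 and 131 in es3dd at 21 nt, a log2 difference of -0.43 ± 0.14 (SE). PSBQ1, which encodes a smaller extrinsic protein, was just short of the call at -0.97 ± 0.27 (SE). It was called at -1.08, -1.04 and -1.11 without es3 library A, es3 library D and es3dd library B. PSBY, a gene of small membrane proteins, went the other way, with 39.4, 57.3, 62.7 and 71.4 in es3, against 21.4, 24.1, 36.3 and 39.3 in es3dd at 21 nt. The groups were apart by a small margin at 0.92 ± 0.22 (SE), and the gene was called at 1.09, 1.02 and 1.06 without es3 library D, es3dd library A and es3dd library B.

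At 22 nt PSBO2, the second PsbO gene, was called lower with 12.3, 15.9, 15.97 and 16.1 in es3, against 22.5, 33.3, 40.7 and 40.9 in es3dd. Its log2 difference was -1.11 ± 0.24 (SE, limma adjusted p = 0.0002), or 0.29 scaled to MIR loci, and it fell short of the call at -0.95 with a pseudocount of 5. PSBO1 did not pass the call at 22 nt, at -0.301 ± 0.14 (SE), and its groups overlapped. Against Col, 8 of the 9 photosystem II genes were called lower at 21 nt and all 9 at 22 nt in the authors' deposited table. PSBQ1 had the lowest log2 fold change at 21 nt, -2.24, and PSBY, at -0.195 with adjusted p = 0.49 in the authors' deposited table, was the one not called.

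The plastocyanin genes had the 2 highest 21-nt differences of all members, PETE2 only just ahead of LHCB1.5. PETE1 (AT1G76100, chr1:28553883-28554930, minus strand) had 50.6, 56.6, 61.2 and 67.3 in es3, against 3.66, 5.32, 6.51 and 8.69 in es3dd at 21 nt. The lowest es3 library was several times the highest es3dd library. The means were 58.9 ± 7.05 and 6.05 ± 2.12 (SD, n = 4), a ratio of 9.75, and the log2 difference was 3.13 ± 0.26 (SE, limma adjusted p = 2.7e-10). It was called higher under all 4 other scalings tried at 21 nt. The authors' Col mean was 13.4, and in the authors' deposited table PETE1 was the one member called higher than Col, at 2.13 (adjusted p = 1.5e-12).

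PETE2 (AT1G20340, chr1:7042046-7043392, minus strand), from which most leaf plastocyanin is made, had 138, 140.1, 154 and 158 in es3, against 38.2, 45.2, 53.04 and 66.7 in es3dd at 21 nt. The groups were apart, with a log2 difference of 1.55 ± 0.16 (SE, limma adjusted p = 8.4e-09), which fell below the call at 0.61 when centred on the median and at 0.43 when scaled to the housekeeping list. Against the authors' Col mean of 169 it had a log2 fold change of -0.196 (adjusted p = 0.25) in the authors' deposited table. Per kilobase, the authors' 21-nt mean of PETE1 was 0.102 of that of PETE2 for Col, 0.514 for es3 and 0.153 for es3dd. At 22 nt PETE2 had 52.4, 53.1, 63.6 and 68.1 in es3, against 54.2, 57.5, 61.3 and 65.2 in es3dd, which overlap throughout. PETE1 had 8.87, 15.9, 17.02 and 17.8 and 5.30, 8.0004, 8.05 and 9.63 at 22 nt, at 0.84 ± 0.32 (SE, limma adjusted p = 0.047), and was called at 1.06 without es3 library C. PETC, which encodes the Rieske iron-sulfur protein of the cytochrome b6f complex, lay at -0.197 ± 0.28 and -0.46 ± 0.28 (SE) at 21 and 22 nt. PETC was called lower than Col in both classes, at -1.93 and -2.099, and PETE2 at 22 nt, at -1.44, in the authors' deposited table.

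RCA (AT2G39730, chr2:16570746-16573692, minus strand) was the member called lower in es3 in both classes. It had 21-nt values of 83.2, 86.1, 87.4 and 94.8 in es3, against 193, 196, 200.2 and 213 in es3dd, and 22-nt values of 69.5, 84.2, 84.2 and 89.6 and 178, 184, 197 and 217. In each class the libraries of a group lay close together and the groups far apart. The log2 differences were -1.18 ± 0.11 at 21 nt (SE, limma adjusted p = 2.6e-09) and -1.24 ± 0.11 at 22 nt (adjusted p = 3.4e-16), which reversed to 0.74 and 0.21 when scaled to MIR loci. The authors' Col means were 780.5 and 676. In the authors' deposited table its log2 fold change over Col was -3.15 at 21 nt and -3.05 at 22 nt, the lowest of the 45 at 21 nt. AT2G39725 overlaps RCA on the other strand.

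The 4 RBCS genes encode the small subunit of Rubisco. RBCS1A, the highest of them, had 238, 241, 246 and 255 in es3, against 184, 187, 196 and 226 in es3dd at 21 nt, without overlap, at 0.31 ± 0.09 (SE), which reversed to -0.63 when centred on the median. At 22 nt RBCS1A was on the other side, with 126, 133, 135 and 148 in es3, against 175, 184, 187 and 203 in es3dd, at -0.46 ± 0.10 (SE), or 0.99 scaled to MIR loci. RBCS2B and RBCS3B were called lower at 22 nt and RBCS1B lay at -0.99, and scaled to MIR loci the first pair stood at 0.43 and 0.41. RBCS2B had 31.9, 33.1, 37.8 and 39.4 in es3, against 65.2, 72.004, 74.3 and 77.1 in es3dd, and RBCS3B had 65.2, 68.6, 73.8 and 77.2 and 140.1, 141, 152 and 156. In neither gene did the groups overlap. The log2 differences of RBCS2B (-1.003 ± 0.16, limma adjusted p = 8.2e-07) and RBCS3B (-1.04 ± 0.12, limma adjusted p = 1.2e-11) stood close to the fold threshold. RBCS2B was below it at -0.97, -0.95, -0.97 and -0.99 without es3 library B, es3 library C, es3dd library B and es3dd library C, and RBCS3B at -0.997 without es3 library A. RBCS1B was past it at -1.07, -1.03 and -1.03 without es3 library B, es3 library D and es3dd library A. All 4 RBCS genes were called lower than Col in both classes in the authors' deposited table, from -2.195 to -1.41 at 21 nt and from -2.91 to -2.06 at 22 nt.

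The 12 members whose representative RefSeq transcript has 1 exon differed from the 33 with 2 or more. They were LHCB1.1 to LHCB1.5, PSAD1, PSAD2, PSAG, PSBX, PSBY, PETE1 and PETE2. At 21 nt their log2 differences between es3 and es3dd ran from -0.01 to 3.13 with a median of 0.75, 11 of 12 above 0, and 4 were called higher. The 33 others ran from -1.18 to 0.71 with a median of -0.20, 24 of 33 below 0, and 1 was called lower. At 22 nt the medians were -0.10 and -0.72, and the 9 genes called lower all had 2 or more exons. The signs reversed with the scaling as above. Centring moves all genes by the same amount, and the other scalings move low genes less, since 1 is added after scaling. Scaled to MIR loci at 21 nt, the median of all genes rose by 1.08 and that of the members from -0.05 to 1.86. The gap between the medians of the 2 exon classes was 0.95 at 21 nt, and 0.89 to 1.06 under the other scalings. Scaling is no independent check of that gap.

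The same order was seen among other protein-coding genes, at higher values. At 21 nt, 2334 genes with 1 exon had a median of 1.96 with 72.7% called higher, and 11081 with 2 or more had a median of 1.26 with 56% called higher. At 22 nt the medians were 0.95 over 1854 genes and 0.53 over 8578 genes. Among other genes with a mean of at least 10 the medians were 3.60 (650 genes, 85.9% called higher) and 2.19 (1336 genes, 74.6%) at 21 nt, and 1.43 (337 genes) and 0.47 (797 genes) at 22 nt. A gene can reach that mean through es3 alone. Against Col, the authors' deposited table gave the 1-exon members a median log2 fold change of -0.23 at 21 nt, with 2 of 12 lower and 1 higher, and the others -1.58 with 29 of 33 lower. At 22 nt the authors' deposited table gave -1.25 with 8 of 12 lower, and -1.86 with 33 of 33 lower. The split by exons was chosen after the values had been seen, 5 of the 12 genes are LHCB1 copies that share sequence, and no test was made.

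**Figure D3:**
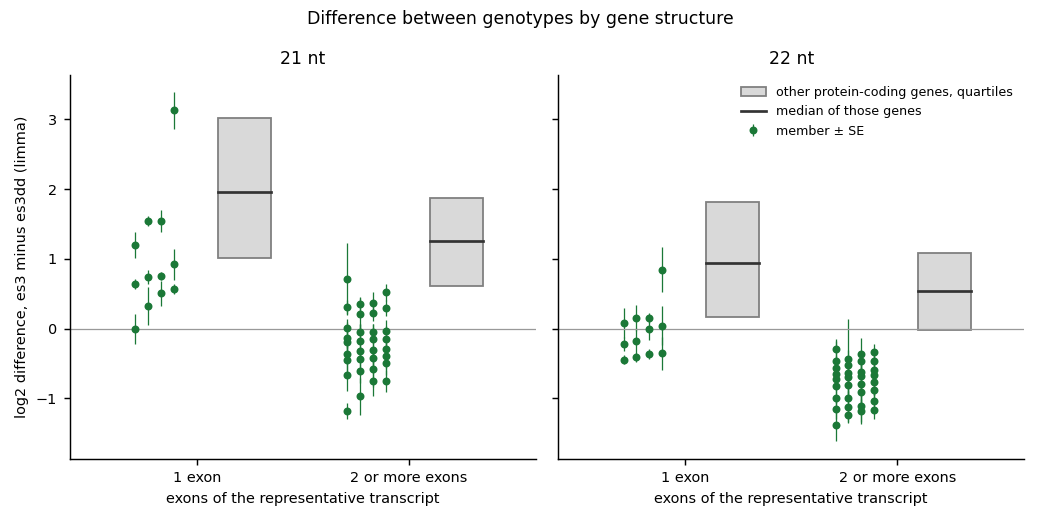
Log2 differences between es3 and es3dd (limma, es3 minus es3dd, bars are SE) of the 45 members at 21 nt (left) and 22 nt (right), by the number of exons of the representative transcript, beside the quartiles (box) and median (line) of other protein-coding genes. On the deposited scale the 1-exon members have a median of 0.75 at 21 nt and the others -0.20, both below the boxes' medians of 1.96 and 1.26. Scaled to MIR loci the members' 21-nt medians are 2.68 and 1.62, and the median of all genes tested also rises, from 0.98 to 2.07. The boxes are not rescaled.

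The ratio of the 22-nt to the 21-nt value was taken from the authors' means. The 2 size classes were scaled apart, so a ratio is read only against other ratios of the same genotype. The members with both means of at least 5 numbered 45 for Col, and 44 for each mutant, LHCB4.3 being the one left out. In Col the members' median of 0.853 lay below the 0.94 of other nuclear protein-coding genes, and in es3dd 0.946 lay below 1.07. In es3 the members' 0.589 lay above the 0.455 of the other genes. Those other genes numbered 1971 for Col, 2928 for es3 and 1272 for es3dd, since both means had to be at least 5 in that genotype. A gene can enter the es3 set through es3 alone, so the backgrounds are not the same genes. Whether the change of order comes from the members or from the genes admitted was not tested. Within es3 the members ranged from 0.253 for PETE1 to 1.03 for PSBQ1, with RCA near the top at 0.931 and LHCB1.5 low at 0.379. Within Col, RCA at 0.867 was near the members' median, and LHCB1.5 at 0.914 stood at their upper quartile. Within es3dd, RCA at 0.968 and LHCB1.5 at 0.988 lay between the members' median of 0.946 and upper quartile of 0.997. These ratios have no replicate error, since libraries cannot be linked between the size classes.

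**Figure D4:**
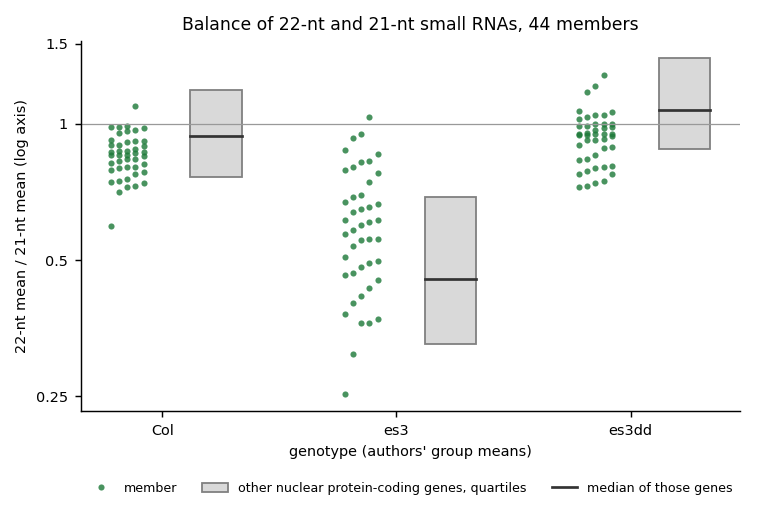
Ratio of the authors' 22-nt mean to the 21-nt mean (log axis) for 44 members (green dots, LHCB4.3 left out) in Col, es3 and es3dd, beside the quartiles (box) and median (line) of other nuclear protein-coding genes. Within es3 the members spread from 0.253 to 1.03, and their median of 0.589 lies above the 0.455 of the other genes. The other genes are a different set in each genotype, admitted by means of at least 5 in that genotype.

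A list of 40 other nuclear photosynthesis genes covers the Calvin cycle, ferredoxin and its reductase, ATP synthase, chlorophyll synthesis and the GLK transcription factors. At 21 nt, 13 of 40 were called higher in es3 than in es3dd and 0 lower in limma, where 45.9% and 7.7% of all genes tested were. That is 32.5% of the list, a smaller share than over all genes. Its median was 0.29, beside 0.98 over all genes. At 22 nt, 1 was higher and 3 lower, where 15.2% and 4.32% of all genes were, with a median of -0.37 beside 0.30. GLK1, a transcription factor that activates antenna genes, led at 21 nt with 3.25 ± 0.22 (SE, limma adjusted p = 3.3e-12) and authors' means of 13.8 in Col, 119 in es3 and 12.1 in es3dd. GLK2, its close relative, followed at 2.83 ± 0.49, and PSB27, an assembly factor of photosystem II, at 2.61 ± 0.28 (SE). CP12-1, a regulator of the Calvin cycle, stood at 2.18 ± 0.19, the ferredoxin gene FD1 at 2.12 ± 0.39 and PORB, which reduces protochlorophyllide, at 1.92 ± 0.19 (SE). At 22 nt GLK1 was called higher at 1.32 ± 0.26, and the small photosystem II subunit gene PSBTN (-1.52 ± 0.35), the fructose-bisphosphatase gene HCEF1 (-1.37 ± 0.37) and the ferredoxin reductase gene FNR2 (-1.07 ± 0.30) lower (SE). In the authors' deposited table for es3 over Col, 22 of the 40 were lower and 5 higher at 21 nt, where 3.89% and 21.2% of all genes were, and 29 of 39 lower and 2 higher at 22 nt, where 3.96% and 7.85% were.

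Over the whole table, the recovered scale of a library ran from 1035224 to 1442114 reads at 21 nt and from 1057388 to 1318741 at 22 nt, so 1 read is worth slightly less than a value of 1. In limma the plastid-encoded genes were called lower in es3 than in es3dd for 75 of 86 at 21 nt and 54 of 81 at 22 nt, and MIR loci for 76 of 96 and 60 of 100. Over all genes tested, 7.7% were called lower at 21 nt and 4.32% at 22 nt. Of the housekeeping list, 6 of 13 were called higher at 21 nt and 1 of 11 at 22 nt. That is 46.15% and 9.09% of the list, beside 45.9% and 15.2% over all genes tested. Small RNA at a gene is no measure of its mRNA, and marker lists are given only as values. Of 5 root markers 2 passed the filter, and none of the 3 flower or 3 seed markers did. SCR was called higher at 21 and 22 nt, at 4.61 ± 0.31 and 2.63 ± 0.38 (SE). PYK10 was called in neither class, at 0.51 ± 0.37 and 0.60 ± 0.44 (SE).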

How the data were processed

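Small RNAs of 21 and 22 nt were deposited per gene as the authors' group means in a unit they call TPM, which is not divided by gene length, for Col, es3 and es3dd. The authors' log2 fold changes, p-values and adjusted p-values for es3 over Col and es3 over es3dd stand beside them in the deposited table, where 5625 cells of each log2 column at 21 nt are not numbers. Bowtie 1.2.2, SAMtools 1.9, DESeq2 and the build TAIR10 are listed, per the submitters' processing notes, without roles. Counting rules are not given in the sources used here.

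Low means are sums of whole multiples of 4 steps, 1 read of each library. Means of up to 1500 reads, and in a second round 5000, were matched to whole reads at a relative tolerance of 5e-15. Every gene tried in the first round had exactly 1 match (25227 and 23743 genes of es3, 21557 and 21836 of es3dd, at 21 and 22 nt), against 0 of 2000 random values in each column. In the second round, where several matches existed, the only one with libraries within 2-fold of each other was kept. LHCB1.3 at 21 nt in es3, with 2 matches, was settled so. Recovered genes hold 43.3% and 83.4% of the es3 signal at 21 and 22 nt, and 17.3% and 69.7% in es3dd.

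The tests used limma 3.58.1 (R 4.3.3) with a trend of variance on mean, fitted to log2(value + 1) of all recovered genes with a mean of at least 1, with Benjamini-Hochberg adjustment. Fold changes of low genes are understated on this scale. The fit was tested on simulated data with the same dispersion for all genes and no overall shift between groups, unlike the real data. Only genes with a mean of at least 10 were changed, and 50 of 50 changed 4-fold were called in each class. Alternatives were 4 other scalings, pseudocounts of 0.5 and 5, other filters, voom, the authors' table and leaving out each library. Values carry SD over 4 libraries and log2 differences carry SE. Nothing in the sources used here says more of replicates than that they are biological.

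The members and all gene lists were chosen with earlier results of these data known. Named with values per library are members called in limma and the highest member of each group in es3 at 21 nt, with their near copies. LHCB5 and PSBY are given per library at 21 nt as well, outside this rule. Other members tested at 22 nt are given by ranges, a departure from the rule that would have listed them all. Protein identity, part of that rule, was replaced by shared windows of 21 bases. Of the other pathway genes at most 6 called per comparison are named, largest difference first. RefSeq annotation TAIR10.1 gave coordinates and exons. Other per-sample columns not used numbered 0. Analyses used Python 3.11.15, numpy 2.4.6 and pandas 2.3.3.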

Additional observations from a re-analysis of the deposited data

Results flagged for a closer look

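In 10 of 180 groups of 4 libraries, 1 library stood apart from the other 3 by more than Dixon's criterion allows, where chance gives about 1 in 20. At 21 nt in es3dd, the highest library had 156.5 for LHCB3 with the next at 104.5, 67.6 for PSAD1 with the next at 38.4, 33.8 for PSAH2 with the next at 31.1, and 131.4 for PSBO1 with the next at 101.9. In es3 the lowest library had 48.8 for PSAG at 21 nt, with the next at 59.1. At 22 nt in es3, the highest library for LHCB1.1 had 340.7 with the next at 305.2, the lowest for LHCB1.2 had 273.3 with the next at 285.1, and the lowest for PSBO2 had 12.3 with the next at 15.9. At 22 nt in es3dd, the highest library had 179.4 for LHCB1.4 with the next at 161.1, and 31.8 for PSAH2 with the next at 20.9. PSAD1 at 21 nt and PSBO2 at 22 nt are called genes, and neither call was lost when any 1 library was left out, although PSBO2 fell short at -0.95 with a pseudocount of 5.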

How the results depend on the processing

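The scaling decides the direction of most members. It moved the median log2 difference of all genes at 21 nt by -0.94 when centred, -0.67 with the housekeeping list, 1.08 with MIR loci and 0.94 with plastid-encoded genes, and at 22 nt by -0.43, -0.31, 1.01 and 0.90. At 21 nt, members called higher and lower numbered 1 and 21 when centred, 1 and 26 with the housekeeping list, 43 and 0 with MIR loci, and 40 and 0 with plastid-encoded genes. At 22 nt they numbered 0 and 24, 0 and 25, 15 and 0, and 8 and 0. The cause was not tested. Shares of all genes called under these scalings are not given here, so the members' counts have no background beside them.

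Log2 differences at 21 nt reversed to -0.65 for LHCA4, -0.19 for LHCB1.3 and -0.63 for RBCS1A when centred. With the housekeeping list they reversed to -0.83 for LHCA4, -0.38 for LHCB1.3 and -0.82 for RBCS1A. With MIR loci they reversed to 1.49 for PSBO1 and 0.74 for RCA, and with plastid-encoded genes to 1.23 for PSBO1 and 0.48 for RCA. At 22 nt, MIR loci gave 0.29 for LHCA1, 0.98 for LHCA4, 1.04 for LHCB1.3, 0.27 for LHCB2.3, 0.28 for LHCB6, 0.012 for PSAF, 0.24 for PSAO, 1.14 for PSBO1, 0.29 for PSBO2, 1.42 for PETE2, 0.99 for RBCS1A, 0.43 for RBCS2B, 0.41 for RBCS3B and 0.21 for RCA. Plastid-encoded genes gave 0.14 for LHCA1, 0.83 for LHCA4, 0.89 for LHCB1.3, 0.13 for LHCB2.3, 0.13 for LHCB6, 0.091 for PSAO, 0.99 for PSBO1, 0.14 for PSBO2, 1.27 for PETE2, 0.84 for RBCS1A, 0.28 for RBCS2B, 0.26 for RBCS3B and 0.061 for RCA at 22 nt. PSAD1 at 22 nt reversed to -0.28 when centred and to -0.29 with the housekeeping list. PETE2 at 22 nt, near 0, ranged from -0.081 to 0.044 over the leave-one-out fits and reversed in 4 of them.

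With a pseudocount of 0.5, 2 members were called lower at 21 nt in place of 1, as with voom on whole reads and in the authors' deposited table for es3 over es3dd. With a pseudocount of 5, 5 were called lower at 22 nt in place of 9, since LHCB2.3 (-0.96), PSBO2 (-0.95), RBCS2B (-0.93) and RBCS3B (-0.9985) fell short of the fold. Leaving out 1 library at a time gave 4 to 5 higher and 1 to 2 lower at 21 nt, and 0 to 1 higher and 7 to 10 lower at 22 nt. For es3 over Col at 21 nt, 3 members were higher with no minimum fold in place of 1 in the authors' deposited table. The remaining counts under the filters tried were within 1.5 times those reported. No paired analysis was possible because replicate numbers are missing from the libraries as recovered. Counting error limits LHCB4.3, with at most 15 reads in a group. At a simulated 2-fold change, which is the fold a call requires, 29 of 50 genes at 21 nt and 16 of 50 at 22 nt were called. Members near that size can thus fall on either side.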
